A study of Mus musculus with 12 samples.

Results

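The 10 genes described here encode the MHC class I antigen presentation pathway of the mouse: H2-K1 and H2-D1 (the classical class I heavy chains), B2m (their invariant light chain), Tap1, Tap2 and Tapbp (peptide transport and loading), Psmb8, Psmb9 and Psmb10 (the catalytic subunits of the immunoproteasome) and Nlrc5 (the class I transactivator). They were chosen by name from the 56350 genes of the count table, and 10 of 10 passed the filter on low counts that 16484 genes passed. Levels were measured by mRNA sequencing in MPC2 cells, a conditionally immortalized line of mouse mesenchymal progenitors that is 1 clone. The 4 conditions had 3 libraries each. Undifferentiated cells (MSCs) stayed at 33 °C in growth medium and received DMSO vehicle or 50 µM FG-4592 (Roxadustat), and cells differentiated for 3 weeks at 37 °C with beta-glycerophosphate and ascorbic acid (osteocytes) received the same agents, in both cases for 48 hours. FG-4592 inhibits the prolyl hydroxylases that mark HIF transcription factors for destruction and so mimics hypoxia. Temperature, medium and differentiation changed together between the cell types and cannot be told apart, and the medium described for MPC2 cells lists no interferon. The labels do not say that replicates were separate cultures, so the p-values measure the spread between these libraries, which may be technical.

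Class I molecules carry peptides from inside the cell to its surface, where CD8 T cells read them. The proteasome cuts cytosolic proteins to peptides, the Tap1 and Tap2 proteins pump these into the endoplasmic reticulum, and tapasin (Tapbp) holds an empty heavy chain and its light chain next to that pump until a peptide fits. Nearly all nucleated cells express the pathway at some level. Interferon gamma raises its genes together, with Irf1 and Nlrc5 among the activators, and exchanges the catalytic proteasome subunits Psmb5, Psmb6 and Psmb7 for Psmb8, Psmb9 and Psmb10.

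The libraries held between 52829185 and 68108470 counts. The labelled cell types were checked against marker lists. Of 10 osteoblast and osteocyte markers tested in vehicle, 7 rose in osteocytes, among them Phex (5.88 on the log2 scale) and Dmp1 (3.22). Ibsp (-0.74, FDR 0.00289) and Alpl (-0.33, FDR 0.014) were lower there, and Fgf23 did not pass (FDR 0.578). With FG-4592, 6 of the 10 fell and 1 rose in MSCs (median -0.73), and 8 fell and 1 rose in osteocytes (-1.05). Phex fell by 1.53 in MSCs (FDR 0.00269) and 4.35 in osteocytes (FDR 7.98e-11) and Ibsp by 4.12 (FDR 3.39e-10) and 1.55 (FDR 5.91e-06), whereas Spp1 rose in MSCs (0.52, FDR 0.000203) and Fgf23 in osteocytes (5.81, FDR 6.68e-05). Fgf23 had 79 to 125 counts per library in FG-4592-treated osteocytes, 0 to 5 in vehicle-treated osteocytes and at most 8 in MSCs. It passed the filter only through the group where it was high, so this call was not independent of the filter. The markers above moved with the same treatment as the members, and their part in the members' responses was not tested. Sost had no count in any library, and Mepe and Pdpn had at most 2 counts. The summed level of 15 leukocyte markers came to 1.11 to 3.74 CPM (counts scaled to the library size with TMM factors) in all 12 libraries, with Ptprc at no more than 9 counts and Cd8a, Adgre1 and Ncr1 at 0. Most of it was Csf1r (up to 109 counts) and Cd68 (up to 115). Csf1r was lower in vehicle-treated osteocytes than in MSCs (-1.90, FDR 0.00675), and Cd68 did not pass (FDR 0.217). Fcer1g had 18 to 27 counts per library in vehicle-treated osteocytes and at most 9 elsewhere. That of 7 endothelial markers was 1.50 to 3.80 CPM, with Cldn5 at 0 and Cdh5, Kdr and Emcn at no more than 1 count. The rest was Vwf (up to 104 counts), Tek (up to 126) and Pecam1 (up to 33), of which Tek (3.02, FDR 0.000484) and Pecam1 (1.77, FDR 0.0328) were higher in vehicle-treated osteocytes than in MSCs. The part of these transcripts in the members' differences was not tested. The 11 mesenchymal markers summed to 12620 to 16600 CPM, most of it Col1a1, Col1a2 and Vim, whereas Thy1 had no count in MSCs and at most 6 counts in an osteocyte library, and Nt5e was at 0.464 CPM in vehicle-treated MSCs and 18.7 in vehicle-treated osteocytes. Pdgfra (0.54) and Pdgfrb (0.68) were also higher in vehicle-treated osteocytes, and Ly6a (-1.95, FDR 8.66e-11) and Vim (-1.255, FDR 7.29e-12) were lower. With FG-4592 in osteocytes, Ly6a (2.52, FDR 5.97e-12), Vim (1.05, FDR 8.78e-11) and Nt5e (0.80) rose, and Pdgfra (-0.23) and Pdgfrb (-0.76) fell. The part of these markers in the members' differences was not tested. Of the 9 HIF target genes tested, 7 rose with FG-4592 in MSCs and 9 in osteocytes (medians 3.31 and 3.70). Egln3 (879 to 1051 counts per library) and Adm (16 to 49) passed the filter on low counts only through FG-4592-treated osteocytes. Elsewhere they had at most 33 and 6 counts, so their rise was not independent of the filter. The 7 others rose in both cell types, which checks the treatment labels. In such bulk RNA, fewer cells of a type and less RNA per cell cannot be told apart.

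Of the members, 7 lie on chromosome 17 (mm10), in or near the major histocompatibility complex. Psmb9 (34181987 to 34187764, minus strand), Tap1 (34187553 to 34197225, plus), Psmb8 (34197721 to 34201454, plus) and Tap2 (34203527 to 34216321, plus) follow each other within 34335 bases. Tapbp (33915899 to 33929292) and H2-K1 (33996017 to 34000347) lie before this cluster and H2-D1 (35262730 to 35267499) lies after it. B2m is on chromosome 2 (122147686 to 122153083), and Psmb10 (105935735 to 105938444) and Nlrc5 (94434356 to 94527272) are on chromosome 8. The authors counted a read pair for every gene it overlapped, without regard to strand. Psmb9 and Tap1 share 212 exonic bases, Tapbp shares 904 bases with Gm19412 and 149 with Zbtb22, Nlrc5 shares 78 with 9330175E14Rik, Psmb8 shares 498 with Gm20496, and Tap2 shares 533 with Gm15821 and 165 with Gm20496, so that part of their counts may belong to the partner. The largest count in any library was 5453 for Tap1 and 2302 for Psmb9, 2165 for Zbtb22, 1900 for 9330175E14Rik, 343 for Gm19412, 13 for Gm20496 and 6 for Gm15821. How many reads fell in the shared bases was not tested.

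Promoter sequence was found for 8 of the 10 members, all but Tap2 and Nlrc5, in the RefSeq windows of GRCm38.p6, which run from 250 bases before to 50 bases after a start. A RefSeq start can differ from the end of the gene span given above, which comes from the count table. The H2-D1 stretch thus lies inside the span given for that gene. Likewise, the spans of Tap1 and Psmb9 overlap although 225 bases lie between their RefSeq starts. The stretches below show what the promoters of the heavy and light chains share, and the short interval from which Psmb9 and Tap1 are read in opposite directions. Capitals mark exact matches, on either strand, to an interferon response motif (GAAANNGAA or GAANNGAAA), the NF-kB motif GGGNNTTCC, the X2 and CRE core TGACG, or the box CCAAT, each written 5′ to 3′ on the strand given.
B2m, 175 bases before the start, chr2:122147512-122147686, plus strand: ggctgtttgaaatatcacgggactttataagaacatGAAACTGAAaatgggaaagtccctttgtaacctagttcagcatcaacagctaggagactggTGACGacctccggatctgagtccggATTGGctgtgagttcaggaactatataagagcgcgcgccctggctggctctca
H2-K1, 175 bases before the start, chr17:34000348-34000522, minus strand: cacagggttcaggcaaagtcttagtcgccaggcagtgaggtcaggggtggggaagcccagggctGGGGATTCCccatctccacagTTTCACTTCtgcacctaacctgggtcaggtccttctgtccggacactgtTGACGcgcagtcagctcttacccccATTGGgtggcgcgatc
H2-D1, 175 bases before the start, chr17:35262919-35263093, plus strand: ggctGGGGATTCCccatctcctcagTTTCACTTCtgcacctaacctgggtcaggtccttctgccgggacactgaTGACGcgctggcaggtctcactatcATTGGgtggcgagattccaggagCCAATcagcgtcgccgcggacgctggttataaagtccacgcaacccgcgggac
Tap1 and Psmb9, the 225 bases between their starts, chr17:34187331-34187555, plus strand: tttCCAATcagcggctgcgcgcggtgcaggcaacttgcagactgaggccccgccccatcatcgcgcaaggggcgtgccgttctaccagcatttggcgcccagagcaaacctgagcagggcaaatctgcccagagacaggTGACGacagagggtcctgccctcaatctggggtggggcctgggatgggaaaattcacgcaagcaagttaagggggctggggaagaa

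The windows of H2-K1 and H2-D1 matched at 176 of 240 bases (73.3%) when shifted by 60 bases, with a longest identical run of 47 bases, and held the NF-kB motif, the interferon motif, TGACG and CCAAT in the same order. The form GAAANNGAA, present in 8.56% of all 32851 windows, was found in B2m alone among the members, and the form GAANNGAAA (7.52% of windows) in H2-K1 and H2-D1. The NF-kB motif (5.82%) was found in H2-K1 and H2-D1, TGACG (20.8%) in these, B2m, Tap1 and Psmb9, and CCAAT (37.4%) in these 5 and Tapbp. The gamma-activated site TTCNNNGAA (8.3%) was found in Psmb8 alone, and the hypoxia response core ACGTG (19.6%) in Psmb10 alone. GAANNGAAA and CCAAT were added after the sequences had been read. Each match describes letters in a short window, not a bound site.

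B2m and the heavy chains were by far the most abundant members. Per kilobase of exonic length, vehicle-treated MSCs held 1936 ± 33.7 CPM per kb of B2m (SD, n = 3, as for all levels), 484 ± 13.3 of H2-D1 and 175 ± 5.43 of H2-K1, but only 41.7 of Tapbp, 32.6 of Tap2, 15.6 of Nlrc5, 14.9 of Tap1, 11.8 of Psmb10, 5.80 of Psmb9 and 5.41 of Psmb8. The order B2m, H2-D1, H2-K1, Tapbp, Tap2 was the same in all 4 conditions, with no overlap of libraries between neighbours. Among the lower 5 the order changed, and Nlrc5 overlapped Tap1, and Psmb9 overlapped Psmb8, in MSCs of either treatment. Together the members took 0.407% to 0.43% of counts in vehicle-treated MSCs, 0.355% to 0.392% in FG-4592-treated MSCs, and in osteocytes 0.608% to 0.659% with vehicle against 0.648% to 0.682% with FG-4592.

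**Figure D1:**
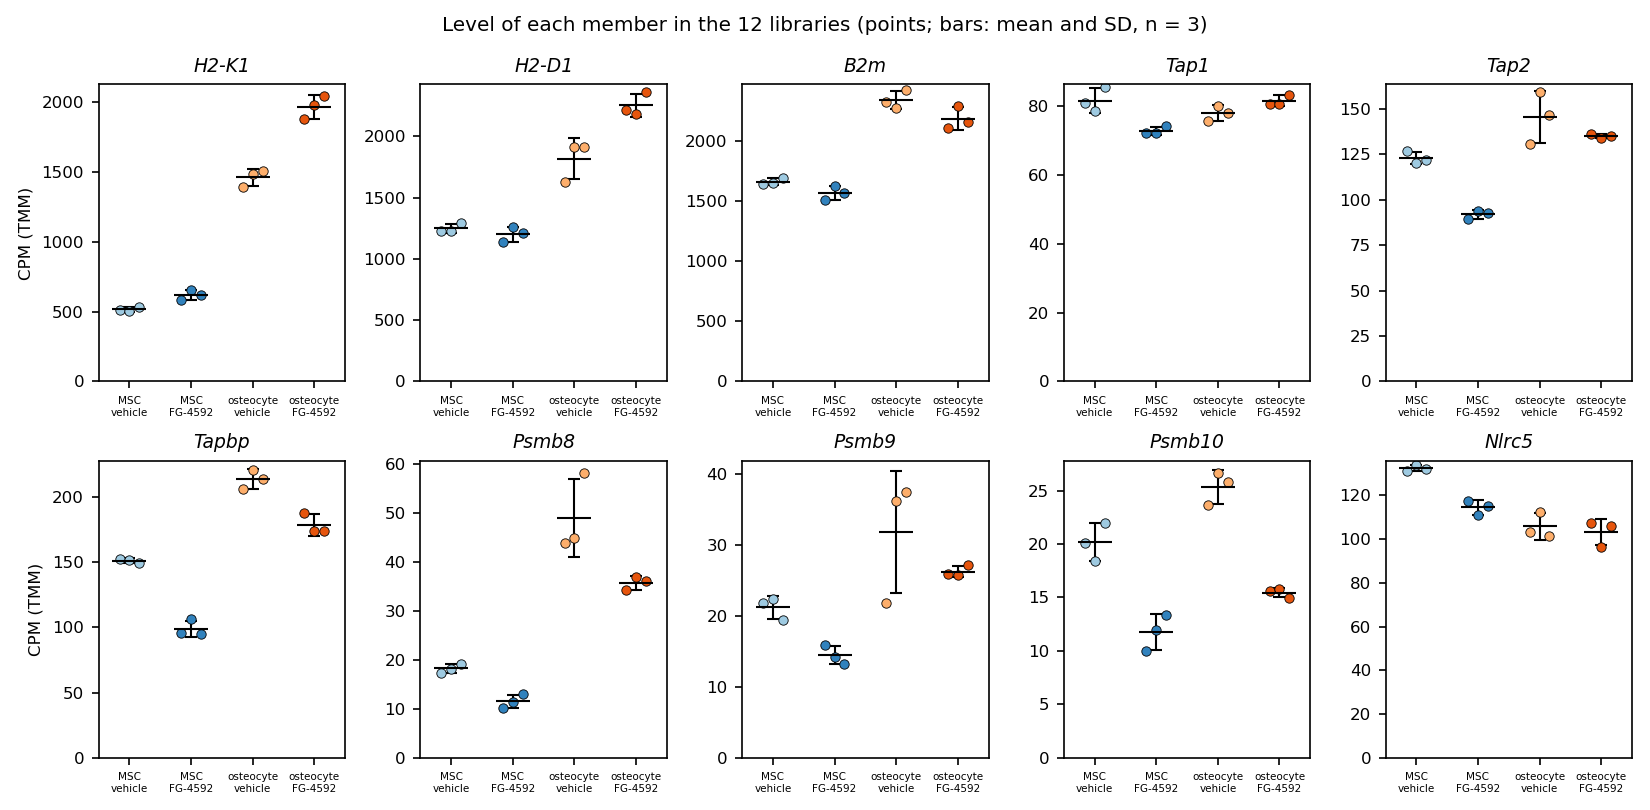
The y axis of each panel gives the level of a member in CPM with TMM factors and the x axis the condition, with a point for each library and bars for the mean and SD. H2-K1, H2-D1, B2m, Tap2, Tapbp and Psmb8 lay higher in every osteocyte library than in every MSC library, and Nlrc5 was highest in vehicle-treated MSCs.

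The comparison of osteocytes with MSCs asks how the pathway differed with differentiation. In vehicle, 8 of 10 members were higher in osteocytes, Nlrc5 was lower and Tap1 did not pass the test (edgeR quasi-likelihood, FDR under 0.05 over all genes tested). Of all genes tested, 26% were called higher and 24.9% lower. The median log2 fold change of the members was 0.50, against -0.01 for all genes. H2-K1 and Psmb8 also passed the study's cutoff of an absolute log2 fold change above 1, which 15.9% of genes passed. In FG-4592, 9 members were higher and Nlrc5 was lower, where 30.5% of all genes were called higher and 25.3% lower, and the same H2-K1 and Psmb8 passed the cutoff (18.3% of genes). The comparisons in vehicle and in FG-4592 use different libraries.

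The response to FG-4592 asks how a mimic of hypoxia altered the pathway in each cell type. In MSCs, 7 of 10 members fell, H2-K1 rose, and H2-D1 and B2m did not pass, where 17.6% of all genes were called higher and 20.4% lower, and the median of the members was -0.32 against -0.04 for all genes. None of these shifts reached the study's cutoff, which 9.29% of genes passed. In osteocytes, H2-K1 and H2-D1 rose, Tapbp, Psmb8 and Psmb10 fell, and 5 members did not pass, where 21.9% of all genes were called higher and 22% lower and 10.5% passed the cutoff. The difference between the responses, tested as an interaction, passed for H2-D1, Tap1, Tap2 and Tapbp, each with the higher value in osteocytes, where 13.3% of genes were called in that direction, 11% in the other, and 5.01% past the cutoff. No member past the test went the other way, also by DESeq2 or at an unadjusted p under 0.05.

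**Figure D2:**
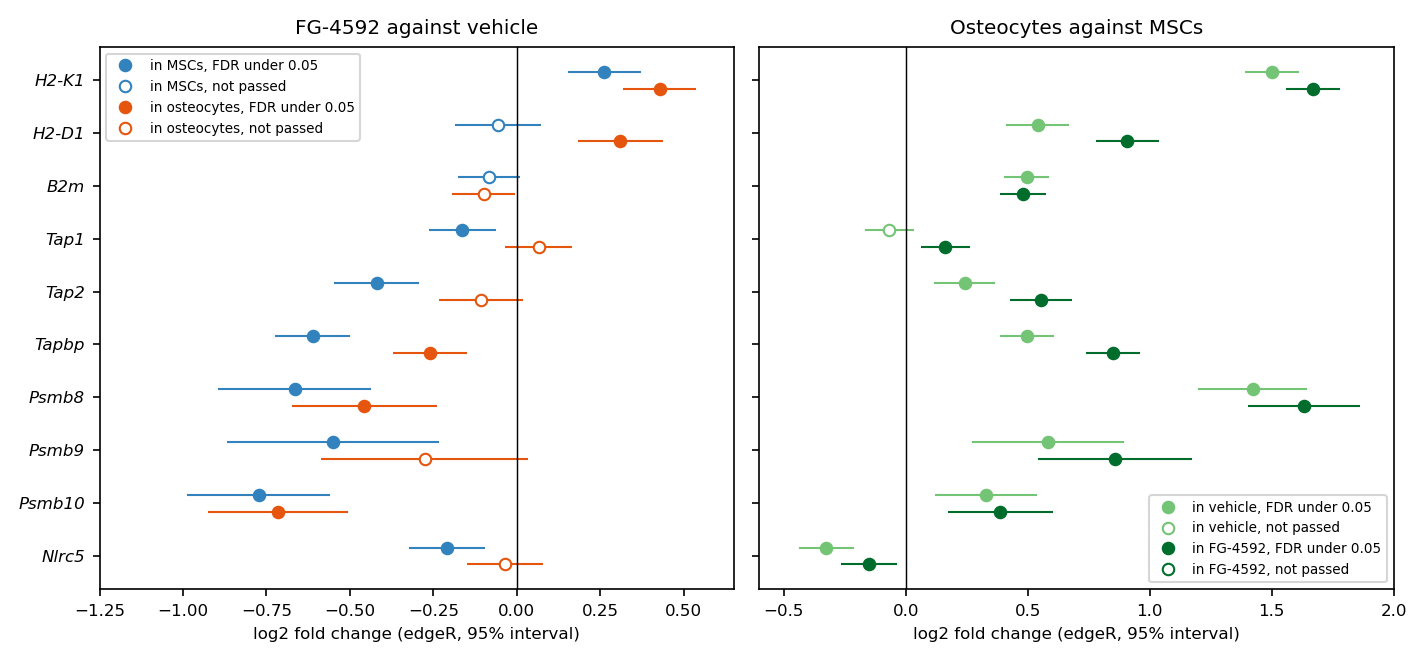
The x axes give log2 fold changes with 95% intervals from edgeR, for FG-4592 against vehicle (left) and osteocytes against MSCs (right), and the y axis lists the members. Under FG-4592 the heavy chains lay at or above 0 except H2-D1 in MSCs, while transport, loading and immunoproteasome genes lay at or below 0 except Tap1 in osteocytes, which turns to -0.03 with library size alone.

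H2-K1, one of the heavy chains that present peptides to CD8 T cells, had the largest change with differentiation. Its level was 513, 501 and 532.5 CPM in vehicle-treated MSCs, 580, 653 and 621 in FG-4592-treated MSCs, 1394, 1484 and 1504 in vehicle-treated osteocytes, and 1876, 1977 and 2041 in FG-4592-treated osteocytes. The 4 conditions did not overlap, and rose in that order. Osteocytes exceeded MSCs by 1.50 ± 0.05 on the log2 scale in vehicle (SE, FDR 1.08e-12) and by 1.67 in FG-4592 (FDR 1.84e-13). FG-4592 raised H2-K1 by 0.26 ± 0.05 in MSCs (FDR 0.000699) and by 0.43 ± 0.05 in osteocytes (FDR 4.15e-06), and these responses differed by 0.17, with a 95% interval of 0.01 to 0.32 that did not pass after adjustment (FDR 0.113).

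H2-D1, the other classical heavy chain of this genome, responded to FG-4592 in osteocytes. It stood at 1230, 1228 and 1289 CPM in vehicle-treated MSCs, at 1134, 1257 and 1211 in FG-4592-treated MSCs, at 1626, 1912 and 1915 in vehicle-treated osteocytes and at 2219, 2182 and 2362 in FG-4592-treated osteocytes. The MSC conditions overlapped, vehicle-treated osteocytes lay above both, and FG-4592-treated osteocytes above all. The log2 fold change with FG-4592 was 0.31 ± 0.06 in osteocytes (FDR 0.00052) and -0.06 in MSCs (FDR 0.507), a difference of 0.37 ± 0.09 (FDR 0.00489). Osteocytes exceeded MSCs by 0.54 in vehicle (FDR 1.53e-06) and 0.91 in FG-4592 (FDR 2.52e-09).

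Heavy chain genes are closely related, and reads may be divided among them in a way that depends on the allele the cells carry, since the strain behind MPC2 is not given in the sources used here. With 29 class I heavy chain genes summed, of which H2-K1 and H2-D1 held 84% of counts, the response to FG-4592 was 0.05 in MSCs (FDR 0.469), so that the rise of H2-K1 there does not extend to the sum. The difference between the responses of the sum was 0.32 (FDR 0.00397). Within the pair, the ratio of H2-K1 to H2-D1 per kilobase was 0.358 to 0.366 in vehicle-treated MSCs, 0.449 to 0.456 in FG-4592-treated MSCs, 0.681 to 0.752 in vehicle-treated osteocytes and 0.742 to 0.795 in FG-4592-treated osteocytes, where vehicle and FG-4592 overlapped only in osteocytes.

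B2m, the light chain without which heavy chains do not reach the surface, rose with differentiation and did not pass for FG-4592 in the fit with TMM factors. Its libraries read 1643, 1653 and 1698 CPM in vehicle-treated MSCs, 1512, 1629 and 1571 in FG-4592-treated MSCs, 2332, 2280 and 2428 in vehicle-treated osteocytes and 2112, 2295 and 2164 in FG-4592-treated osteocytes. Every osteocyte library exceeded every MSC library. Osteocytes were higher by 0.50 ± 0.04 in vehicle (FDR 1.1e-07) and 0.48 in FG-4592 (FDR 1.22e-07). With FG-4592 the log2 fold change was -0.08 in MSCs (FDR 0.155) and -0.10 in osteocytes (FDR 0.0814), and the latter passed under RLE factors (FDR 0.0466), in DESeq2 (FDR 0.035) and without MSC vehicle replicate 1 (FDR 0.049) or 3 (FDR 0.0473), osteocyte FG4592 replicate 2 (FDR 0.0396) or osteocyte vehicle replicate 2 (FDR 0.0371). Over the alternative settings, the lowest FDR was 0.00163 in osteocytes and 0.00617 in MSCs, with log2 fold changes down to -0.198 and -0.169. The calls for B2m in both cell types thus depended on the setting. Both heavy chains summed, per kilobase and relative to B2m, stood at 0.336 to 0.345 in vehicle-treated MSCs, 0.362 to 0.375 in FG-4592-treated MSCs, 0.407 to 0.47 in vehicle-treated osteocytes and 0.569 to 0.64 in FG-4592-treated osteocytes, with no overlap between conditions.

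The transporter and loading genes fell with FG-4592 in MSCs, and each response lay higher in osteocytes. Tapbp, which encodes tapasin, was at 153, 151.5 and 149 CPM in vehicle-treated MSCs, 95.7, 106 and 95.1 in FG-4592-treated MSCs, 206, 221 and 214 in vehicle-treated osteocytes and 188, 173.5 and 174 in FG-4592-treated osteocytes, and no 2 conditions overlapped. FG-4592 brought it to 0.655 of the vehicle level in MSCs (log2 fold change -0.61 ± 0.05, FDR 1.24e-07) and to 0.835 in osteocytes (-0.26 ± 0.05, FDR 0.000687). The responses differed by 0.35 ± 0.07 (FDR 0.00239), and vehicle-treated osteocytes exceeded MSCs by 0.50 (FDR 7.53e-07).

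Tap2, a chain of the peptide pump, also fell in MSCs. It stood at 127, 120 and 122 CPM in vehicle-treated MSCs, 89.3, 93.8 and 92.8 in FG-4592-treated MSCs, 131, 159 and 147 in vehicle-treated osteocytes and 136, 134 and 135 in FG-4592-treated osteocytes. FG-4592 separated the MSC libraries (-0.42 ± 0.06, FDR 3.19e-05), while the osteocyte conditions overlapped (-0.11, FDR 0.157), and osteocyte vehicle replicate 1 was the lowest of its condition. Without that library the osteocyte response was -0.20 (FDR 0.00391). The difference between the responses, 0.31 ± 0.08 (FDR 0.0124), did not pass without MSC vehicle replicate 1 (FDR 0.0774) or 3 (FDR 0.0556). Osteocytes exceeded MSCs by 0.24 in vehicle (FDR 0.00282) and 0.55 in FG-4592 (FDR 7.47e-07).

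Tap1, the partner subunit of the pump, moved least among the transporter genes. It was at 80.9, 78.5 and 85.7 CPM in vehicle-treated MSCs, 72.2, 72.3 and 74.3 in FG-4592-treated MSCs, 75.6, 80.2 and 78.2 in vehicle-treated osteocytes and 80.7, 80.8 and 83.4 in FG-4592-treated osteocytes. The MSC conditions did not overlap (-0.16 ± 0.05, FDR 0.0118), but the call was lost without MSC vehicle replicate 1 (FDR 0.0625) or 3 (FDR 0.175). In osteocytes the log2 fold change was 0.07 (FDR 0.29), and -0.03 with library size alone. The responses differed by 0.23 (FDR 0.0198), a call lost without any of 5 libraries in turn, with the highest FDR of 0.159 without MSC vehicle replicate 3. Osteocytes exceeded MSCs by 0.16 in FG-4592 (FDR 0.00817), and in vehicle the value was -0.07 (FDR 0.262). The ratio of Tap2 to Tap1 per kilobase was 2.07 to 2.27 in vehicle-treated MSCs, 1.79 to 1.88 in FG-4592-treated MSCs, 2.50 to 2.88 in vehicle-treated osteocytes and 2.34 to 2.44 in FG-4592-treated osteocytes, with no overlap.

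The immunoproteasome genes fell with FG-4592 in MSCs, and 2 of the 3 fell in osteocytes. Psmb8, which replaces Psmb5, was at 17.4, 18.2 and 19.2 CPM in vehicle-treated MSCs, 10.2, 11.3 and 13.0 in FG-4592-treated MSCs, 43.9, 45.0 and 58.2 in vehicle-treated osteocytes and 34.2, 36.9 and 36.0 in FG-4592-treated osteocytes. No 2 conditions overlapped, and osteocyte vehicle replicate 3 was the highest library. It fell by 0.67 ± 0.11 on the log2 scale with FG-4592 in MSCs (FDR 0.00012) and by 0.46 ± 0.10 in osteocytes (FDR 0.00163), and was higher in osteocytes by 1.42 in vehicle (FDR 1.13e-08) and 1.63 in FG-4592 (FDR 2.05e-09). The difference between its responses, 0.21, had a 95% interval of -0.11 to 0.52 (FDR 0.346).

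Psmb10, which replaces Psmb7, had the lowest log2 fold changes with FG-4592 of the 10 members. Its libraries read 20.1, 18.4 and 21.97 CPM in vehicle-treated MSCs, 10.0, 11.9 and 13.4 in FG-4592-treated MSCs, 23.6, 26.7 and 25.8 in vehicle-treated osteocytes and 15.6, 15.8 and 15.0 in FG-4592-treated osteocytes. Treated and untreated libraries did not overlap in either cell type. The log2 fold change was -0.77 ± 0.10 in MSCs (FDR 1.27e-05) and -0.72 ± 0.10 in osteocytes (FDR 1.92e-05), and the responses differed by 0.06 (95% interval -0.24 to 0.36, FDR 0.815). Osteocytes exceeded MSCs by 0.33 in vehicle (FDR 0.0103) and 0.39 in FG-4592 (FDR 0.00374).

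Psmb9, which replaces Psmb6 and is read from the same interval as Tap1, varied widely among vehicle-treated osteocytes (31.8 ± 8.65 CPM). It stood at 21.9, 22.4 and 19.4 CPM in vehicle-treated MSCs, 15.9, 14.3 and 13.3 in FG-4592-treated MSCs, 21.9, 36.2 and 37.4 in vehicle-treated osteocytes and 25.9, 25.7 and 27.1 in FG-4592-treated osteocytes. Osteocyte vehicle replicate 1 lay at the level of MSCs, far below the other 2 libraries of its condition. FG-4592 lowered Psmb9 in MSCs by 0.55 ± 0.15 (FDR 0.00777). In osteocytes the log2 fold change was -0.28 (FDR 0.143), and -0.51 (FDR 0.000128) without osteocyte vehicle replicate 1. Osteocytes exceeded MSCs by 0.58 in vehicle (FDR 0.00339), by 0.83 (FDR 5.85e-07) without that library, and by 0.86 in FG-4592 (FDR 0.000125). Psmb9 and Tap1 differed in these patterns, with a root mean square distance of 0.415 between their centred log2 CPM over 12 libraries, where the closest pair of members, B2m and Tap2, lay at 0.149 and the farthest, H2-K1 and Nlrc5, at 0.945.

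The constitutive counterparts gave a scale for these subunits, which depends on the deposited exonic lengths (3381 bases for Psmb8 and 3660 for Psmb9). Without division by length, vehicle-treated MSCs held 18.3 CPM of Psmb8 and 50.8 of Psmb5. Within a ratio the lengths are the same in all conditions. The ratio of Psmb8 to Psmb5 per kilobase was 0.0882 to 0.103 in vehicle-treated MSCs, 0.0597 to 0.0795 in FG-4592-treated MSCs, 0.25 to 0.301 in vehicle-treated osteocytes and 0.273 to 0.286 in FG-4592-treated osteocytes. Osteocyte libraries thus lay above all MSC libraries, and the treatments overlapped in osteocytes but not in MSCs. Psmb9 to Psmb6 was 0.111 to 0.124, 0.0819 to 0.0985, 0.172 to 0.25 and 0.208 to 0.219 in the same order. Psmb10 to Psmb7 was 0.306 to 0.445, 0.192 to 0.295, 0.536 to 0.677 and 0.421 to 0.587. For these 2 ratios as well the treatments overlapped in osteocytes and did not in MSCs, and every osteocyte library exceeded the MSC libraries of the same treatment. No test was run on the ratios, which are given as ranges, and an exact permutation test of 3 libraries against 3 cannot give a p below 0.1.

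**Figure D3:**
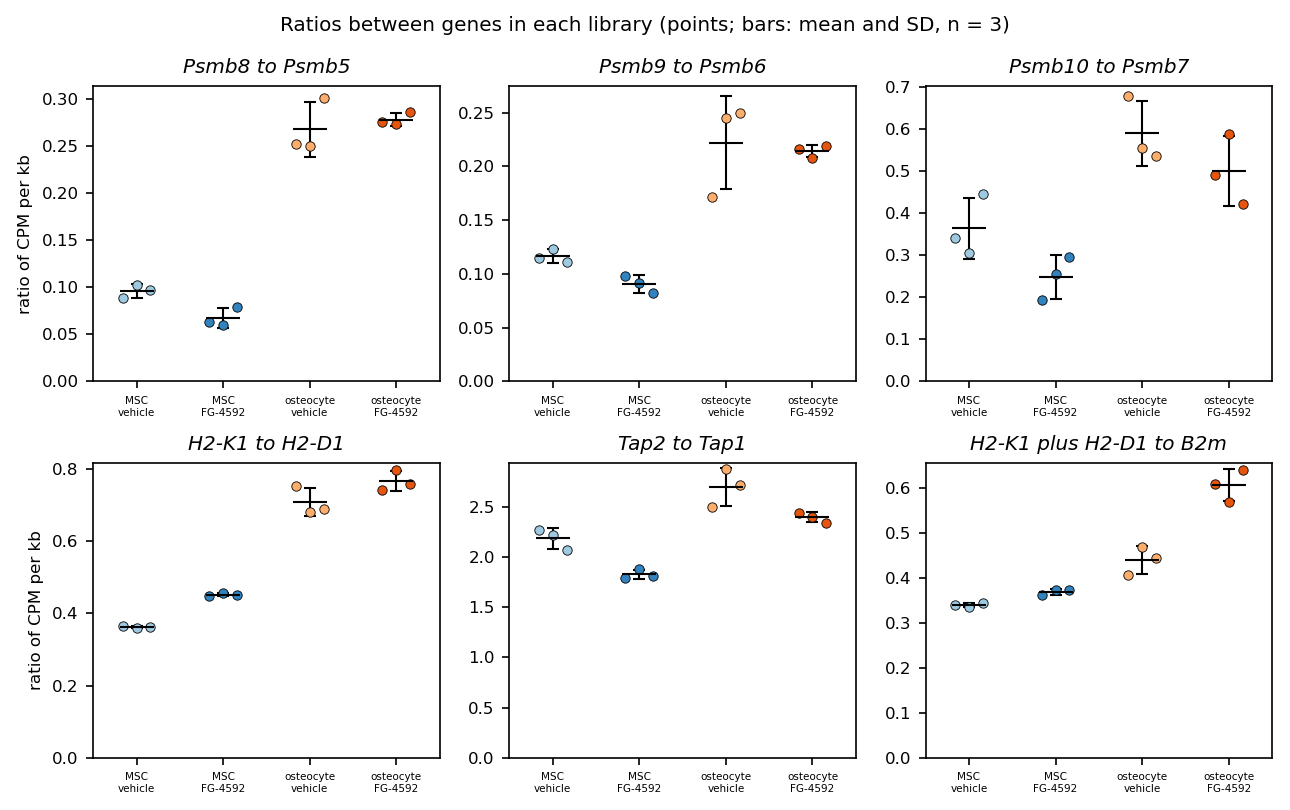
The y axes give the ratio of 2 genes in CPM per kb in each library (points), with bars for the mean and SD, and the x axes the condition. The 3 ratios of immunoproteasome to constitutive subunits were higher in osteocytes than in MSCs of the same treatment, and the ratio of both heavy chains to B2m was highest in FG-4592-treated osteocytes.

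Nlrc5, which activates class I promoters together with the RFX, CREB and NF-Y factors, was lower in osteocytes, where 8 other members were higher. It was at 131, 134 and 132 CPM in vehicle-treated MSCs, 118, 111 and 115 in FG-4592-treated MSCs, 103, 113 and 101 in vehicle-treated osteocytes and 107, 96.2 and 106 in FG-4592-treated osteocytes. Vehicle-treated MSCs lay above all other libraries, and the osteocyte conditions overlapped. The log2 fold change of osteocytes against MSCs in vehicle was -0.32 ± 0.05 (FDR 9.37e-05). In FG-4592 the value was -0.15 (FDR 0.0256), a call lost without MSC FG4592 replicate 1 (FDR 0.0883) or 3 (FDR 0.061) or osteocyte FG4592 replicate 2 (FDR 0.176). FG-4592 lowered Nlrc5 in MSCs by 0.21 ± 0.05 (FDR 0.00509), and its value in osteocytes was -0.04 (FDR 0.638). Over the 12 libraries the genes whose centred log2 CPM lay closest to Nlrc5 were Nin, St3gal2 and Efl1 (root mean square distance 0.0494 to 0.0556 among 12152 genes), those closest to B2m were Smpd1, Hmgxb4 and Srpr (0.0395 to 0.0575), and those closest to H2-K1 were Snx30, Ppip5k1 and Gadd45b (0.0904 to 0.135). No member was among the 100 genes closest to these 3.

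Among 12 other regulators of class I tested, 4 rose and 4 fell with FG-4592 in MSCs (median log2 fold change 0.01), and 5 rose and 4 fell in osteocytes (0.03). The counts of this and the other gene lists stand against 17.6% of all genes called higher and 20.4% lower with FG-4592 in MSCs, 21.9% and 22% in osteocytes, and 26% and 24.9% between the cell types in vehicle. Irf1, an interferon-induced activator, fell in MSCs by 0.59 (FDR 1.75e-06) and had a value of 0.07 in osteocytes (FDR 0.367), a difference of 0.66 (FDR 5.4e-05). Rfx5, a subunit of the X-box complex, fell by 0.52 (FDR 2.74e-05) in MSCs and 0.55 (FDR 1.07e-05) in osteocytes. Rfxap, of the same complex, rose by 1.04 (FDR 3.83e-05) and 0.88 (FDR 0.000147). Irf2 fell in MSCs by 0.30 (FDR 0.000352), with -0.01 in osteocytes (FDR 0.948). Rela, of NF-kB, rose by 0.20 in MSCs (FDR 0.0202) and 0.47 in osteocytes (FDR 1.28e-05), a difference of 0.28 (FDR 0.0329). Nfkb1 was at 0.02 in MSCs (FDR 0.843) and rose by 0.37 in osteocytes (FDR 1.5e-05), a difference of 0.35 (FDR 0.00163).

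Of 14 interferon ligands, receptors and signalling genes tested, 2 rose and 8 fell with FG-4592 in MSCs (median -0.22), and 5 rose and 5 fell in osteocytes (-0.03). The ligands were near absent: Ifng, Ifnl2 and Ifnl3 were at 0 CPM in every condition mean, and the means of Ifnb1, Ifna4 and Ifne were no higher than 0.00521, 0.0224 and 0.0509 CPM, where 3 counts make 0.0447 to 0.0545 CPM. The receptor genes Ifngr1 and Ifngr2 were higher in vehicle-treated osteocytes than MSCs by 1.14 (FDR 2.33e-11) and 0.78 (FDR 6.77e-10), and Ifnar2, Socs3 and Ptpn2 were also higher. Irf7 (-1.24, FDR 1.1e-07), Usp18 (-0.91, FDR 0.0257), Jak2 (-0.70, FDR 8.84e-08), Jak1 (-0.49, FDR 1.07e-06), Tyk2 (-0.40, FDR 0.000102) and Stat2 (-0.34, FDR 0.000146) were lower. The remaining genes tested did not pass in that comparison. Usp18, a brake on interferon receptors, fell with FG-4592 by 2.12 in MSCs (FDR 9.8e-05) and 2.31 in osteocytes (FDR 6.96e-05), and Irf7 by 0.87 (FDR 8.33e-06) and 0.78 (FDR 3.66e-05). Socs3, an inhibitor of cytokine receptor signalling, rose by 0.36 in MSCs (FDR 0.000777) and 0.98 in osteocytes (FDR 9.97e-09), and these responses differed by 0.63 (FDR 0.000249). Of 30 interferon-stimulated antiviral genes, 23 fell and 1 rose in MSCs (median -1.32), and 24 fell and 2 rose in osteocytes (-1.05). In MSCs, Mx1 was at -4.12 (FDR 0.00988), with 22 to 32 counts per library in vehicle and 0 to 4 in FG-4592, Oas2 at -3.18 (FDR 0.00217), Ifit3b at -2.58 (FDR 2.11e-09) and Ifit3 at -2.37 (FDR 3.49e-10). Their summed level was 873 to 882 CPM in vehicle-treated MSCs, 558 to 597 in FG-4592-treated MSCs, 802 to 832 in vehicle-treated osteocytes and 600 to 641 in FG-4592-treated osteocytes. It was lower with FG-4592 in both cell types, where H2-K1 was higher, and its part in the members' response was not tested.

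**Figure D4:**
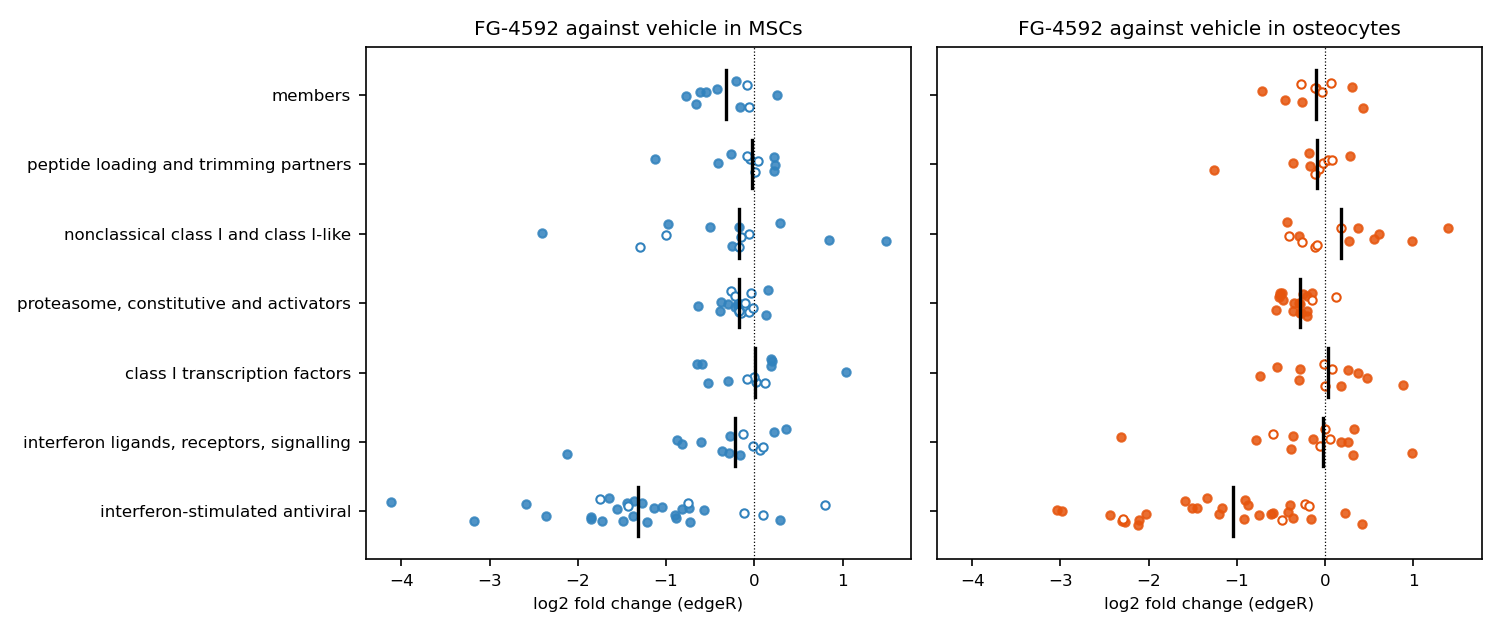
The x axes give the log2 fold change of each tested gene with FG-4592 in MSCs (left) and osteocytes (right), the y axis the list, with filled points for an FDR under 0.05, open points for genes that did not pass, and black bars for list medians. H2-Q7, without a count in FG-4592-treated MSCs, is left out, and the antiviral genes reached further below 0 than the members.

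Of 10 genes that help load and trim peptides, 3 rose and 3 fell with FG-4592 in MSCs (median -0.02), 1 rose and 4 fell in osteocytes (-0.09), and 8 were higher in vehicle-treated osteocytes than in MSCs while 2 did not pass (0.35). Erap1, the aminopeptidase that trims peptides to fit class I, went from 40.4 to 18.6 CPM with FG-4592 in MSCs and from 87.8 to 36.6 CPM in osteocytes. It fell with FG-4592 by 1.12 on the log2 scale in MSCs (FDR 6.13e-09) and 1.26 in osteocytes (FDR 7.82e-10), past the cutoff in both, and was higher in osteocytes by 1.12 in vehicle (FDR 2.57e-09). The chaperone genes Calr and Canx rose in MSCs by 0.23 (FDR 0.000566) and 0.23 (FDR 0.00107), and stood at -0.06 (FDR 0.26) and -0.03 (FDR 0.686) in osteocytes. The responses of both differed between the cell types, by -0.29 (FDR 0.00246) and -0.26 (FDR 0.0103), the opposite direction to Tapbp. Pdia3, which works beside tapasin, fell in osteocytes by 0.18 (FDR 0.0237) and was at -0.04 in MSCs (FDR 0.611). Tapbpl, a tapasin-related editor, fell in MSCs by 0.42 (FDR 0.000153) and was at 0.03 in osteocytes (FDR 0.722), a difference of 0.45 (FDR 0.0027).

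Of 19 proteasome activator and constitutive proteasome genes, 2 rose and 9 fell with FG-4592 in MSCs (median -0.17), and 17 fell in osteocytes while 2 did not pass (-0.28). In vehicle, 1 was higher and 10 were lower in osteocytes (-0.15), where all 3 immunoproteasome members were higher. Psme1 and Psme2, the interferon-inducible activator that caps immunoproteasomes, fell in MSCs by 0.39 (FDR 0.000337) and 0.63 (FDR 3.7e-06), and in osteocytes by 0.30 (FDR 0.00212) and 0.51 (FDR 2.66e-05). Psmb5 fell by 0.50 in osteocytes (FDR 2.67e-05) and was at -0.15 in MSCs (FDR 0.109). Psmb6 fell in both, by 0.19 (FDR 0.021) and 0.21 (FDR 0.0102), and Psmb7 by 0.47 in osteocytes (FDR 0.00393), with -0.22 in MSCs (FDR 0.158).

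Many of the nonclassical and class I-like molecules also pair with B2m. Of 14 genes tested, 11 were higher and 1 was lower in osteocytes in vehicle, with a median of 1.31, or 1.26 without H2-Q7, where 26% of all genes were called higher and 24.9% lower. The lower one was Raet1e, a ligand of the NK receptor NKG2D, at 35.5 CPM in vehicle-treated MSCs and 14.5 in vehicle-treated osteocytes (-1.29, FDR 6.52e-09). Cd1d1, which presents lipids to NKT cells, was at 11.3 ± 0.29 CPM in vehicle-treated MSCs and 119 ± 14.6 in vehicle-treated osteocytes, a log2 fold change of 3.39 (FDR 2.09e-13). H2-Q6 was at 0.56 and 13.7 CPM (4.58, FDR 1.65e-09) and H2-Q7 at 0.0622 and 1.58 CPM (4.63, FDR 8.26e-08). H2-Q6 and H2-Q7 are near-identical copies, so the division of reads between them is uncertain. H2-Q7 had 3 to 4 counts per library in vehicle-treated MSCs. Only osteocyte libraries carried H2-Q7 past the filter on low counts. Its call, among the 11 counted as higher, was therefore not independent of the filter. H2-T10 was at 0.287 and 1.22 CPM (2.09, FDR 0.00263). With FG-4592, 3 rose and 6 fell in MSCs (median -0.18 without H2-Q7), and 7 rose and 2 fell in osteocytes (0.18 without it). H2-K2, a gene next to H2-K1, rose by 1.50 (FDR 0.000282) and 1.39 (FDR 0.000191). Cd1d1 fell by 0.98 (FDR 2.54e-06) and 0.29 (FDR 0.0149), and H2-Q6 fell in MSCs by 2.41 (FDR 0.00117), from 20 to 53 counts per library to 0 to 14. H2-T23, whose product shows peptides from other class I leaders to NK cells, went with FG-4592 from 54.7 ± 2.15 to 98.7 ± 6.17 CPM in MSCs and from 121 ± 5.24 to 239 ± 10.8 CPM in osteocytes, rises of 0.85 (FDR 6.06e-09) and 0.98 (FDR 6.46e-10).

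Class II genes, the pathway that professional presenting cells use for exogenous antigen, were scarce. Of 11, 5 passed the filter, Ciita (the class II transactivator related to Nlrc5) was at no more than 0.0265 CPM in any condition mean, and the summed level of the list was 13.1 to 26.3 CPM, most of it H2-DMb1. Of 8 ligands read by T and NK cells, 6 were tested. With FG-4592, 2 rose and 2 fell in MSCs (median -0.14) and 3 rose and 1 fell in osteocytes (0.22). Pvr, a ligand of the NK receptor DNAM-1, rose by 1.74 (FDR 2.31e-11) and 1.65 (FDR 2.5e-11), Cd80 fell in MSCs by 1.31 (FDR 1.18e-07), and Cd47, a signal against phagocytosis, rose by 0.53 (FDR 1.01e-07) and 0.60 (FDR 1.84e-08). Cd274 (PD-L1) was at 1.32 CPM in vehicle-treated MSCs and 3.49 in vehicle-treated osteocytes, higher by 1.40 (FDR 6.46e-05), with no call for FG-4592 (FDR 0.676 and 0.703).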

How the data were processed

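Per the submitters' processing notes and methods, the authors aligned 100-base read pairs using STAR 2.7.2a (mm10) and counted unique alignments of mapping quality 10 or more on Gencode M22 with featureCounts (Subread 1.6.2), a pair adding to each gene it met. The authors deposited raw counts per gene and library. From these, the 12 libraries were fitted, for genes above 10 counts in 3 or more, in edgeR 4.0.16 (R 4.3.3) with TMM factors, 1 coefficient per condition and the quasi-likelihood test (8 residual degrees of freedom), with Benjamini-Hochberg FDR over 16484 genes. Replicates differed beyond counting noise and replicate numbers did not pair them (correlations -0.135 to 0.0543). The fit was tested on simulated data, where it missed part of the changes, most often the smallest, and made some false calls. CPM per kb used the deposited exonic length. Floors of 3 counts (0.0447 to 0.0545 CPM) cover counting error only. Exonic overlaps were computed in GenomicRanges 1.54.1, and figures in Python 3.11.15. Members and lists were chosen with earlier results of these data known. The members are always named, and other lists by counts, the up to 4 largest changes in a comparison and genes fixed by name, of which 1 is not reported here. Some marker genes were picked after their values were seen. DESeq2 1.42.0, other factors, filters, library subsets and each library left out were alternatives. The ATACseq data were not analysed here. Psme2, Ulbp1, Nfya and Pdpn had 2 rows each, of which the one with more counts was used.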

Additional observations from a re-analysis of the deposited data

Results flagged for a closer look

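The response to FG-4592 differed between osteocytes and MSCs for 4 members by the interaction test of edgeR, in every case with the higher value in osteocytes, where 13.3% of all genes were called in that direction and 11% in the other. With 1 library left out in turn, 2 to 5 members passed. The difference in log2 fold change was 0.37 for H2-D1 (FDR 0.00489), 0.35 for Tapbp (FDR 0.00239), 0.31 for Tap2 (FDR 0.0124) and 0.23 for Tap1 (FDR 0.0198). H2-D1 and Tapbp passed whichever library was left out, whereas Tap1 and Tap2 did not. Tapbp fell in both cell types, and H2-D1 rose in osteocytes. No test for a library standing apart was run within the conditions, which held 3 libraries each. The chi-square per degree of freedom between the counts of 2 libraries measured how far they differed beyond counting noise. In vehicle-treated osteocytes it was 33.4 and 37.7 for the pairs with replicate 1 and 13.7 for replicates 2 and 3. In the other conditions it lay between 9.89 and 24.2.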

How the results depend on the processing

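Of 420 results for single members under other settings, 404 kept their direction and side of the threshold, as did 573 of 600 with 1 library left out. With genes that share exonic bases left out, 4 members remained to be tested (H2-K1, H2-D1, B2m and Psmb10), of which 1 passed the difference between responses, 4 were higher and 0 lower in osteocytes in vehicle and in FG-4592, and 1 fell in MSCs. Of the 10639 genes in that fit, 1188 were called higher and 1486 lower for the difference, 3016 higher in osteocytes in vehicle and 3107 in FG-4592, and 1920 fell in MSCs. With library size alone, 6 members fell in osteocytes, the median of all genes moved to -0.13 in MSCs and -0.0961 in osteocytes, and calls for all genes became 2260 higher and 4654 lower in MSCs (2904 and 3369 with TMM) and 2806 and 4800 in osteocytes (3609 and 3619). Under that setting the response of Tap1 in osteocytes was -0.03276, and 16 mean levels of members moved by more than 1 SD. With 29 class I heavy chain genes summed, the response of the sum in MSCs was 0.05178, above 0 where that of H2-D1 alone was -0.06.

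With each library left out, 2 to 5 members passed the difference between responses (2 without MSC vehicle replicate 1 or 3), 3 to 5 fell in osteocytes (5 without osteocyte vehicle replicate 1), and 0 to 1 was lower in osteocytes in FG-4592 (0 without MSC FG4592 replicate 1 or 3 or osteocyte FG4592 replicate 2). Values without a call that changed sign were the difference for B2m (-0.08108 to 0.01082) and Psmb10 (-0.05893 to 0.1593), Nlrc5 with FG-4592 in osteocytes (-0.07056 to 0.01688) and Tap1 in osteocytes against MSCs in vehicle (-0.06718 to 0.009165). The cause was not tested.

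Replicate numbers did not pair the libraries, since deviations of libraries with the same number correlated at -0.135 to 0.0543 and those with different numbers at -0.0978 to 0.0926. With the replicate block, 2844 genes were called higher and 3208 lower for FG-4592 in MSCs, and the members called in that response were again 1 higher and 7 lower. With 3 libraries per condition, small shifts of the low members (Psmb8, Psmb9 and Psmb10) were measured least precisely.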
